A study of Homo sapiens with 10 samples.

Results

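The genes described here act in mitochondrial dynamics and cristae shape: OPA1, MFN1 and MFN2 in fusion, DNM1L, MFF and FIS1 in fission, IMMT, CHCHD3 and CHCHD6 in the MICOS complex, and the prohibitin PHB2. They were chosen by name and matched to Ensembl identifiers through GENCODE 29. All 10 were found among the 63677 gene identifiers of the count files, and all 10 passed the filter on low counts. RS4;11 is an established line from a leukemia of B-cell precursors (BCP-ALL). The 10 libraries come from separate cultures of it, all grown side by side. Venetoclax, which blocks BCL-2, was given in steps of growing dose to those named insensitive (VENins, n = 5). Those named sensitive (VENsens, n = 5) received DMSO only. According to the paper, the VENins lines stayed under venetoclax, and the drug was washed out before analysis. Acquired insensitivity and drug exposure therefore cannot be told apart between the groups. Each line gave 1 library of poly(A) RNA, with between 38491516 and 52960365 reads, of which between 20631907 and 28323643 were counted on genes. All lines descend from the same parental line, so the spread between them is that of parallel cultures of a single cell line.

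The mitochondrial network is remade by joining and splitting: mitofusins merge outer membranes, OPA1 merges inner membranes, and DNM1L assembles into a ring that pinches the organelle apart, with MFF and FIS1 as its anchors. Cristae, the folds that hold the respiratory chain, are joined to the boundary membrane by the MICOS complex, and OPA1 and prohibitin rings keep their shape. Cytochrome c is stored inside cristae and leaves during the mitochondrial apoptosis that venetoclax sets off in leukemia cells.

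The libraries carried the markers of their label. Summed over 12 markers of KMT2A-rearranged BCP-ALL, the level lay between 3410 and 3740 CPM (counts scaled by library size and TMM factors) in the 10 lines, led by PAX5 with group means of 783 CPM (VENsens) and 631 CPM (VENins). Sums over 4 T-cell markers lay between 0.871 and 1.3 CPM, over 4 myeloid markers between 7.41 and 12.6 CPM, most of it CSF1R, and over 3 fibroblast markers between 13.1 and 19.1 CPM, most of it PDGFRB. Markers of erythroid and epithelial cells summed to less than 0.05 CPM in every line. PAX5 was lower in VENins lines, with a log2 fold change of -0.31 (SE 0.053, lower in 5 of 5 line pairs, adjusted p = 0.0272 by edgeR's quasi-likelihood test with Benjamini-Hochberg adjustment over 16756 genes), while 0 of the other 11 BCP-ALL markers passed 0.05. Of these 11, 6 had a log2 fold change above 0 and 5 below, and 3 had an unadjusted p under 0.05 in the same edgeR test. In these bulk libraries, fewer cells of a type and less RNA per cell cannot be told apart.

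A pair of lines stood apart from the rest by transcript length. Among protein-coding genes with a mean of at least 1 CPM, the 2785 genes with the shortest transcripts, up to 2195 bp, deviated from the mean of the 10 lines by a median log2 value of -0.12 in VENsens line 2 and of 0.1 in VENins line 5. For the 2784 genes with transcripts of 5211 bp or more the medians were 0.13 in VENsens line 2 and -0.1 in VENins line 5, and in the other 8 lines both lay between -0.05 and 0.06. Between conditions, the median log2 fold change was 0.08 in the shortest and -0.08 in the longest of 4 length groups. FIS1, CHCHD3, CHCHD6, PHB2 and MFF belong to the shortest group, IMMT to the next, DNM1L and MFN2 to the one after it, and OPA1 and MFN1 to the longest. What set these lines apart was not tested.

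Promoters are shown for OPA1, MFN1 and DNM1L, since these 3 genes had their lowest level of the 10 lines in the same line, VENins line 5, a choice made after their values were seen. The sequences are from RefSeq (GRCh38.p14) and run 5′ to 3′ from 250 bases before to 50 bases after the start, and all 10 genes matched the table. All 3 lie on the plus strand, at chr3:193592958-193593257 for OPA1, chr3:179347459-179347758 for MFN1 and chr12:32679051-32679350 for DNM1L. Capitals mark CATGCGC, part of the sequence bound by nuclear respiratory factor 1, and CCGGAAG, the core bound by ETS factors such as GABP, each searched on both strands.
OPA1: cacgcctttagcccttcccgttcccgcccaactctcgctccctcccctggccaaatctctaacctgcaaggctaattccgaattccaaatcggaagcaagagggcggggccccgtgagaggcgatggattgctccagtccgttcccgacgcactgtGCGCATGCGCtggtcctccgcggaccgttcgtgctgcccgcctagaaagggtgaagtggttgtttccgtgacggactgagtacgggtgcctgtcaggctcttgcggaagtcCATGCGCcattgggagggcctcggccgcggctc
MFN1: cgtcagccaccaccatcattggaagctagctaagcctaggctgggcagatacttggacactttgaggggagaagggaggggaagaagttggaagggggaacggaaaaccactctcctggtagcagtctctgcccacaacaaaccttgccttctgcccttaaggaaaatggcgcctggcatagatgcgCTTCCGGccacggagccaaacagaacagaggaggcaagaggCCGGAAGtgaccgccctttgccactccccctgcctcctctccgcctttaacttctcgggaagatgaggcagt
DNM1L: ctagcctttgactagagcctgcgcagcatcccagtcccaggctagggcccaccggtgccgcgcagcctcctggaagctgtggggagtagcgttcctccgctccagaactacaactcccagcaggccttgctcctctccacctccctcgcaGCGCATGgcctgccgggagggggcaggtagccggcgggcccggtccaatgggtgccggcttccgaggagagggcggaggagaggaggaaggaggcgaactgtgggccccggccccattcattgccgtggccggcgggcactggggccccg
The OPA1 promoter held CATGCGC 3 times, with overlap, and the DNM1L promoter held it 1 time, while the MFN1 promoter held CCGGAAG 2 times. Of the 35116 promoters in the table, 4.43% held CATGCGC and 10.3% held CCGGAAG. The 10 genes have 13 promoters in the table, since MFF has 3 and PHB2 has 2. Of these 13, 2 held CATGCGC (OPA1 and DNM1L) and 5 held CCGGAAG (MFN1, FIS1, IMMT and both of PHB2). These matches describe the letters in the window, and no binding was measured.

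Of the 10 genes, 0 passed an adjusted p of 0.05 between VENins and VENsens lines in edgeR's quasi-likelihood test with the line number as a block, against 0.197% of the 16756 genes tested (33 genes, 6 higher and 27 lower in VENins lines). At an unadjusted p under 0.05, 1 of the 10 was found, MFF, against 16.2% of all tested genes. DESeq2 also called 0 of the 10, against 1.3% of all tested genes with the block (217 genes) and 4.41% without it (739 genes). At an unadjusted p under 0.05, DESeq2 found 1 of the 10 with the block and 2 without it, against 11.6% and 17.5% of all tested genes. Between the groups, 0 of the 10 genes had values that did not overlap, against 2.36% of all genes with VENins lines higher and 2.3% with VENins lines lower. The 10 log2 fold changes lay between -0.09 and 0.17 with a median of 0.01, and the median over all tested genes was 0.003. In absolute size their median was 0.035, against 0.094 over all tested genes. A p that misses the threshold does not show that the levels were the same, so the 95% interval of each difference is given below. Lines paired by number did not deviate together (correlations between -0.151 and 0.053 over 14616 genes), so counts of line pairs depend on the numbering.

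**Figure D1:**
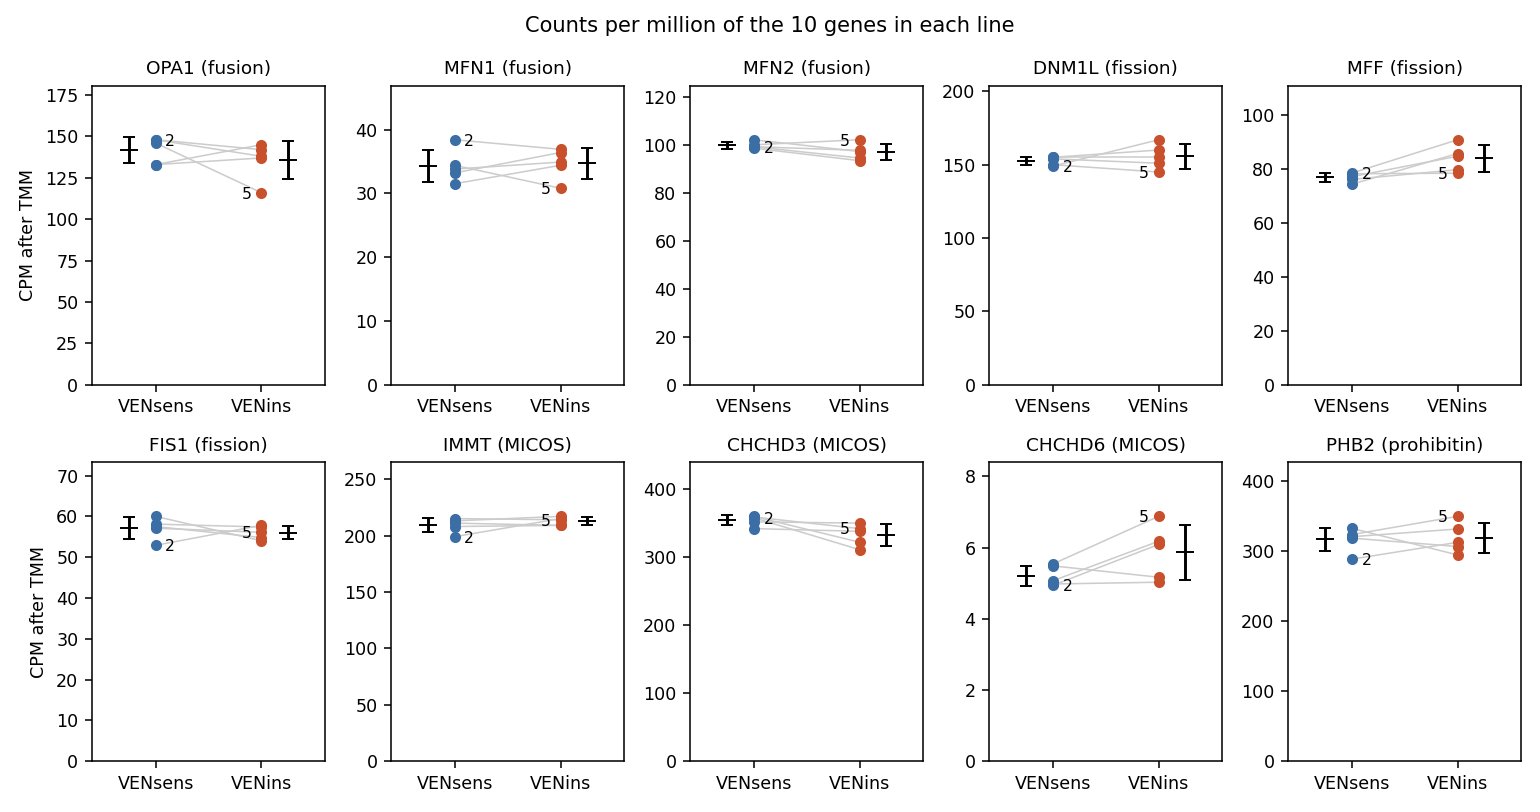
CPM after TMM scaling (vertical axes, each from 0) of the 10 genes in 5 VENsens (blue) and 5 VENins (orange) lines. Points are lines, grey strokes join lines with the same number, black bars are the mean and SD, and the digits mark VENsens line 2 and VENins line 5. In every panel the groups overlap.

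OPA1, a dynamin-like GTPase that fuses inner membranes and narrows crista junctions (ENSG00000198836, chr3:193593144-193697823 in GRCh38), had 133, 148, 133, 148 and 146 CPM in VENsens lines 1 to 5 and 145, 142, 137, 138 and 116 CPM in VENins lines 1 to 5. VENins line 5 was lower than the other 9 lines, which all lay between 133 and 148 CPM, and it set the larger spread of the VENins group (SD 11.1 CPM against 8.03 CPM, n = 5 each). The difference was a log2 fold change of -0.07 with a 95% interval from -0.2 to 0.07, and OPA1 was higher in VENins in 2 of 5 line pairs (adjusted p = 0.646, edgeR's quasi-likelihood test with Benjamini-Hochberg adjustment). With line pairs 2 and 5 left out together, a choice made after the values were seen, the difference turned to 0.02. It was -0.003 without line pair 5 alone and -0.114 without line pair 1.

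MFN1, a mitofusin of the outer membrane (ENSG00000171109, chr3:179347692-179394931), had 33.8, 38.4, 33.2, 31.5 and 34.4 CPM in the VENsens lines and 34.9, 36.9, 36.4, 34.4 and 30.8 CPM in the VENins lines. It shared with OPA1 both its highest line, VENsens line 2, and its lowest, VENins line 5, which are the lines where long transcripts as a whole were highest and lowest. For OPA1 the highest line was close to a tie, at 0.102 above its log2 mean in VENsens line 2 and 0.101 in VENsens line 4. With the length and GC trend taken out, OPA1 was highest in VENsens line 4. The log2 fold change of MFN1 was 0.02 (95% interval -0.12 to 0.16, higher in 3 of 5 pairs), a direction that turned to -0.01 when line pair 3 or line pair 4 was left out. After each library was corrected for its trend with length and GC of the transcripts, the log2 fold change of OPA1 was -0.01 and that of MFN1 0.06.

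MFN2, the other mitofusin, which also links mitochondria to the endoplasmic reticulum (ENSG00000116688, chr1:11980181-12013514), varied little. Its level was 102, 99.1, 98.5, 99.1 and 99.9 CPM in the VENsens lines and 97.1, 94.4, 93.3, 97.6 and 102 CPM in the VENins lines, so that 4 of 5 pairs were lower in VENins and the groups overlapped through VENins line 5. Its SD within groups on the log2 scale was 0.0371, and only 1.7% of the 1000 genes nearest to it in level had a smaller one. MFN2 differed by -0.04 on the log2 scale (95% interval -0.15 to 0.07), and this turned to 0.02 with the length and GC trend taken out.

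DNM1L, the GTPase that constricts and divides mitochondria and is also known as DRP1 (ENSG00000087470, chr12:32679200-32745650), had 155, 149, 155, 154 and 150 CPM in the VENsens lines and 155, 167, 160, 151 and 145 CPM in the VENins lines. The VENins lines bracketed the VENsens lines, with VENins line 2 at the top and VENins line 5 at the bottom of all 10. For DNM1L the log2 fold change was 0.03 (95% interval -0.09 to 0.14, higher in 3 of 5 pairs) and turned to -0.01 without line pair 2. It was 0.06 with the length and GC trend taken out.

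MFF, a tail-anchored docking protein for DNM1L (ENSG00000168958, chr2:227325151-227357836), had 74.3, 78.4, 77.1, 76.1 and 78.2 CPM in the VENsens lines and 85.7, 90.8, 84.7, 79.7 and 78.4 CPM in the VENins lines. VENins lines 1 to 4 lay above every VENsens line, and VENins line 5 met VENsens line 2, the highest of its group. MFF was higher in VENins in 5 of 5 pairs, though by only 0.004 on the log2 scale in pair 5. Its log2 fold change was 0.12 (95% interval 0.01 to 0.24). The unadjusted p was 0.0406 and the adjusted p 0.284 in edgeR's quasi-likelihood test with Benjamini-Hochberg adjustment. Over the alternatives its log2 fold change lay between 0.09 and 0.16, and its smallest adjusted p was 0.113, in DESeq2 without the block. The value with the length and GC trend taken out was 0.09. This single unadjusted call among 10 genes is a share of 10%, below the 16.2% of all tested genes.

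FIS1, the other outer membrane protein of the fission group (ENSG00000214253, chr7:101239458-101252316), had 60, 52.9, 57.5, 58.1 and 57.1 CPM in the VENsens lines and 54, 57.8, 54.8, 57.4 and 56.1 CPM in the VENins lines. All VENins lines lay inside the VENsens range, whose lowest value came from line 2 and whose highest came from line 1. FIS1 differed by -0.03 on the log2 scale (95% interval -0.15 to 0.1, lower in 4 of 5 pairs), and by -0.08 with the length and GC trend taken out. Per kilobase of merged exons, the ratio of FIS1 to MFF lay between 2.31 and 2.76 in VENsens and between 2.16 and 2.47 in VENins lines, lower in VENins in each of the 5 pairs but with overlapping ranges, and this ratio was not tested. Of 8 ratios between these genes that were computed, FIS1 to MFF and CHCHD3 to CHCHD6 were picked after their values were seen as the 2 with 0 of 5 pairs higher, while the other 6 were higher in VENins in 1 to 3 of 5 pairs.

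**Figure D2:**
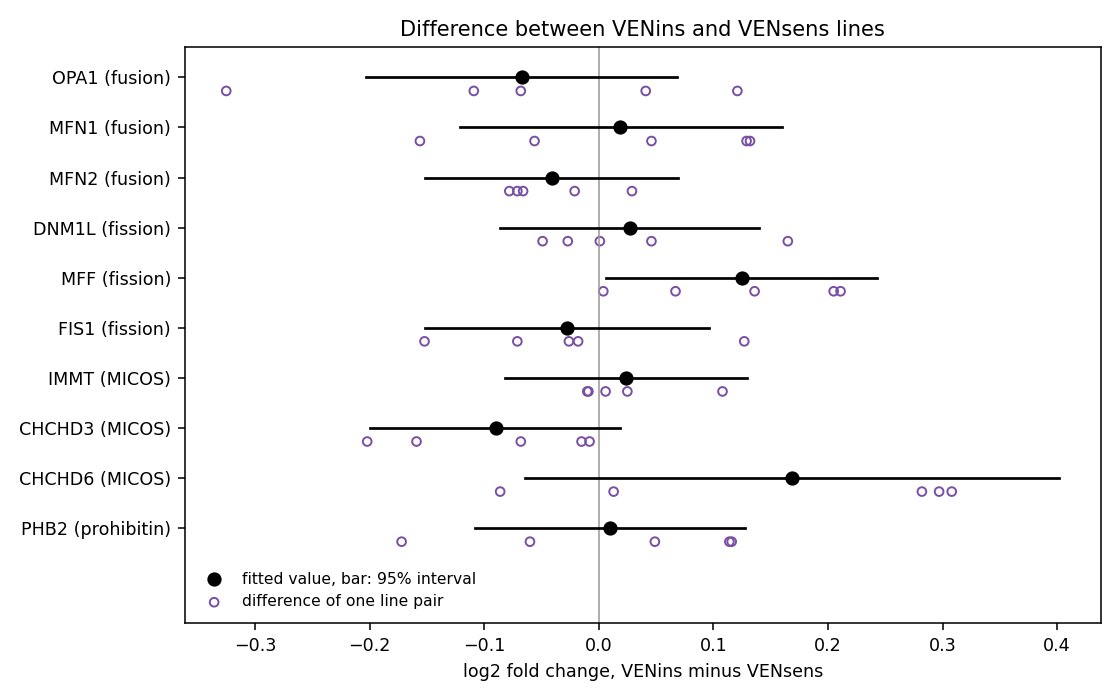
Log2 fold changes of the 10 genes, VENins minus VENsens (horizontal axis). Black points and bars are the fitted values with 95% intervals, and open circles are the differences of the 5 line pairs. The interval of MFF, from 0.01 to 0.24, lies above 0, and the other 9 include 0.

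IMMT, also called mitofilin or MIC60, is the core subunit of MICOS (ENSG00000132305, chr2:86143932-86195770). It had 208, 199, 213, 211 and 215 CPM in the VENsens lines and 209, 215, 217, 209 and 214 CPM in the VENins lines, a range across all 10 lines of only 1.09-fold from lowest to highest. All VENins lines lay between 209 and 217 CPM, inside or just above the VENsens range, and the log2 fold change was 0.02 (95% interval -0.08 to 0.13). Its pseudogene IMMTP1 held between 375 and 542 counts per library, 9.11% of the counts of IMMT, so reads of the gene and its copy may not be fully told apart. The log2 fold change was 0.013 with the counts of the pseudogene added, against 0.024, and 0.037 with the length and GC trend taken out.

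CHCHD3, or MIC19, binds IMMT on the inner membrane (ENSG00000106554, chr7:132784868-133082088). Its level was 360, 358, 342, 352 and 359 CPM in the VENsens lines and 322, 311, 338, 350 and 342 CPM in the VENins lines. CHCHD3 was lower in VENins in 5 of 5 pairs, by little in line pairs 3 and 4 (log2 differences of -0.02 and -0.01) and by more in pairs 1 and 2 (-0.16 and -0.2), while the groups overlapped between 342 and 350 CPM. The log2 fold change was -0.09 with a 95% interval from -0.2 to 0.02 (adjusted p = 0.406 in edgeR's quasi-likelihood test with Benjamini-Hochberg adjustment). As a short transcript it lay on the other side of 0 from the median of its length group, and with the length and GC trend taken out its log2 fold change was -0.13 and its edgeR adjusted p 0.141. The pseudogene CHCHD3P3 held 8.96% as many counts as CHCHD3, and adding the counts of named pseudogenes gave -0.07.

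CHCHD6, or MIC25, the paralog of CHCHD3 in MICOS (ENSG00000159685, chr3:126704220-126960406), was the least abundant, with between 102 and 158 counts per library. It had 5.49, 4.94, 5.07, 4.98 and 5.54 CPM in the VENsens lines and 5.17, 6.09, 6.18, 5.03 and 6.88 CPM in the VENins lines. VENins lines 2, 3 and 5 lay above every VENsens line, and VENins lines 1 and 4 inside their range. The log2 fold change was 0.17 and its 95% interval, from -0.06 to 0.4, was the widest of the 10, with counting error alone giving a coefficient of variation of 8.67% per library (adjusted p = 0.472, edgeR's quasi-likelihood test with Benjamini-Hochberg adjustment). Per kilobase of merged exons, the ratio of CHCHD3 to CHCHD6 was 54.9 ± 2.65 in VENsens and 46.3 ± 6.73 in VENins lines (mean ± SD, n = 5 each), lower in VENins in 5 of 5 pairs and not tested. The log2 fold change of CHCHD6 was 0.12 with the length and GC trend taken out.

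PHB2, which forms rings with PHB1 that scaffold the inner membrane and restrain the cleavage of OPA1 (ENSG00000215021, chr12:6965327-6970825), had 332, 288, 318, 320 and 323 CPM in the VENsens lines and 294, 312, 306, 331 and 349 CPM in the VENins lines. Its lowest value was that of VENsens line 2 and its highest that of VENins line 5, the reverse of OPA1 and MFN1. The log2 fold change was 0.01 (95% interval -0.11 to 0.13), and its sign turned in 5 of the 16 alternatives. The small RNA gene SCARNA12 lies on the same strand across 239 bp, or 9.56%, of the exons of PHB2, and reads there may be missing from its count.

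VENsens line 2 and VENins line 5 held many of the extreme values of these genes, as of the tested genes in general. Of the 10 genes, 7 were lowest in one of these lines (FIS1, IMMT, CHCHD6 and PHB2 in VENsens line 2, and OPA1, MFN1 and DNM1L in VENins line 5), and 5 were highest in one of them. Over all 16756 tested genes the shares were 35.6% lowest and 38.7% highest in these lines, and whether the 10 genes differ from this was not tested. With each library's length and GC trend taken out, 5 were lowest and 1 highest in these lines, against 30.2% and 28.3% of all tested genes. The log2 SD over the 10 lines became smaller for 6 of the 10 genes. For OPA1 it was 0.106 as measured and 0.0548 with the trend taken out, and for PHB2 it was 0.083 and 0.0407. It became larger for CHCHD3 (0.0694 to 0.0899), DNM1L (0.0575 to 0.0707), FIS1 (0.0546 to 0.0695) and IMMT (0.0357 to 0.0361). OPA1 in VENins line 5 was 0.25 below its mean on the log2 scale as measured and still the lowest of the 10 lines with the trend taken out, at 0.09 below. With line pairs 2 and 5 left out, the log2 fold changes were 0.02 for OPA1, 0.105 for MFN1, -0.05 for MFN2, 0.01 for DNM1L, 0.14 for MFF, -0.08 for FIS1, 0.01 for IMMT, -0.06 for CHCHD3, 0.08 for CHCHD6 and -0.06 for PHB2. The median of the 10 then was 0.009, against 0.014 with all lines, and 0 of the 10 passed the test in either case.

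**Figure D3:**
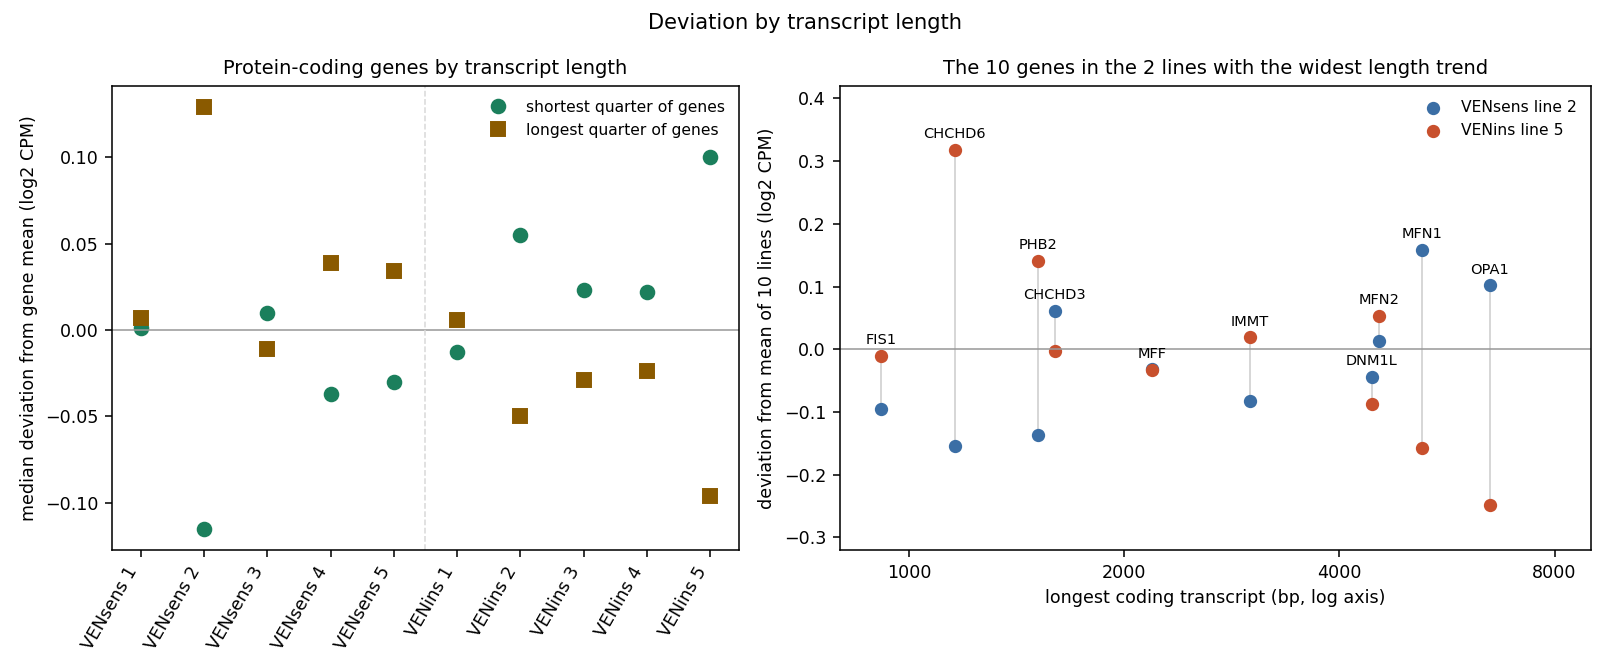
Left, median deviation of the shortest (circles) and longest (squares) of 4 length groups of protein-coding genes from their mean log2 CPM over 10 lines, for each line. Right, deviation of each of the 10 genes in VENsens line 2 and VENins line 5 against the length of its longest coding transcript. OPA1 and MFN1 lie above 0 in the first and below 0 in the second line, and CHCHD6, PHB2 and IMMT the other way. DNM1L and the short FIS1 and MFF lie below 0 in both, and MFN2 lies above 0 in both. The short CHCHD3 lies above 0 in the first (0.061) and near 0 in the second (-0.003).

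Levels of different genes were compared per length, as TPM (counts per kilobase scaled to a common sum) computed over the tested genes with merged exon lengths. PHB2 had the highest level, 339 ± 17.3 TPM (mean ± SD, n = 10), followed by CHCHD3 with 268 ± 17 TPM and IMMT with 141 ± 2.97 TPM. FIS1 followed with 84.2 ± 3.51 TPM. The lowest were MFN1 with 15.5 ± 1.15 TPM and CHCHD6 with 5.35 ± 0.509 TPM. DNM1L (51.2 to 59.2 TPM) and MFN2 (48.9 to 55 TPM) had overlapping ranges, with DNM1L above MFN2 in 9 of 10 lines. OPA1 (33.1 to 45.3 TPM) and MFF (32.4 to 38 TPM) overlapped too, with OPA1 above MFF in 10 of 10 lines. The order was the same in VENsens and VENins lines taken alone. It depends on the length used, since with the longest coding transcript 4 of the 10 genes kept their place, CHCHD3 (431 TPM) came before PHB2 (419 TPM), and MFF, with 73.6 TPM in place of 34.9 TPM, came before OPA1 in all 10 lines. The ratio of MFN2 to MFN1 per kilobase of merged exons lay between 3.06 and 3.96 in the 10 lines.

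**Figure D4:**
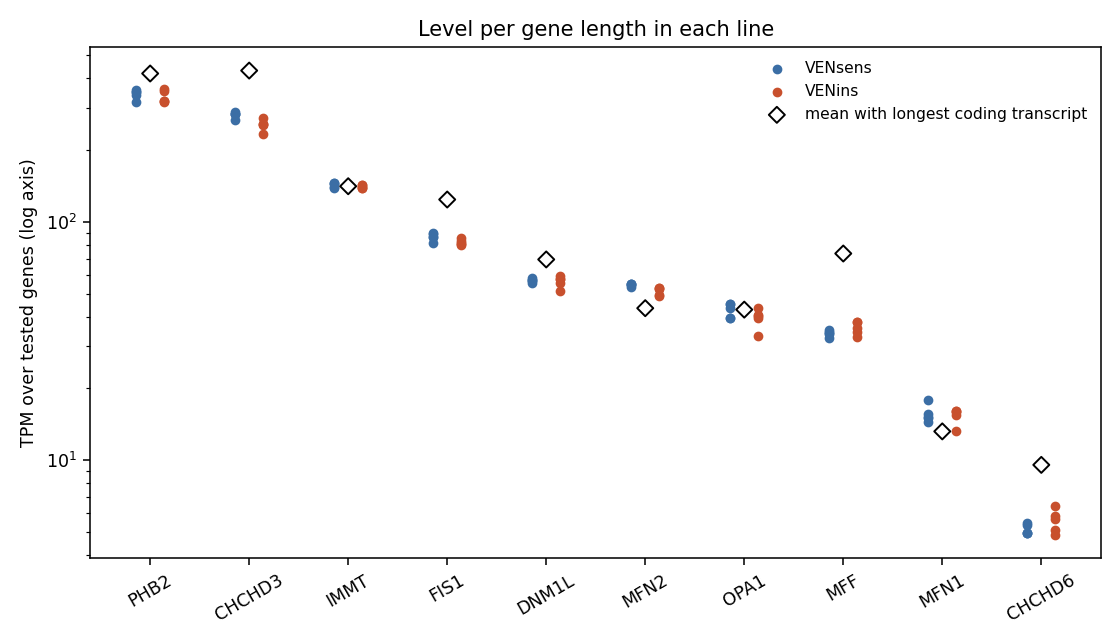
Level of the 10 genes as TPM over tested genes on a log axis, ordered by their mean. Points are the 5 VENsens (blue) and 5 VENins (orange) lines with merged exon lengths, and open diamonds are means over the 10 lines with the length of the longest coding transcript. PHB2 and CHCHD3 lead, and CHCHD6 has the lowest level by either length.

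The wider list of 49 other genes of mitochondrial dynamics and cristae held 48 that passed the filter, all but MTX3, which had a count of 1 in each of 2 libraries and 0 in the others. Of the 48, 0 passed an adjusted p of 0.05 in edgeR's quasi-likelihood test, and 7 had an unadjusted p under 0.05 (14.6%, against 16.2% of all tested genes), namely 4 with higher and 3 with lower VENins levels. At an unadjusted p under 0.05, DESeq2 found 6 of the 48 with the block and 11 without it, against 11.6% and 17.5% of all tested genes. After adjustment it called 0 of the 48 with the block, where it called 1.3% of all tested genes. Without the block it called 4 of the 48 (8.33%, against 4.41% of all tested genes), namely CHCHD10, ATP5ME, ATP5MG and DNAJC19, all higher in VENins lines. DESeq2 gave no adjusted p to 3899 of the 16756 tested genes with the block and 4550 without it. Those genes could not be called, so the shares over all tested genes are lower than over genes with an adjusted p. Of the 48, APOOL had no adjusted p in either fit. The median log2 fold change of the 48 was 0.04, with 27 above 0 and 21 below. By role, the sign split as 8 higher and 8 lower on the fission side, 4 and 7 on the fusion side, and 10 and 3 among MICOS partners and cristae genes, for which the median was 0.12 and the share higher 76.9%, against 51.1% of all tested genes. For these 13 genes the median was 0.065 (12 higher and 1 lower) with the length and GC trend taken out. It was 0.046 (8 higher and 5 lower) with line pairs 2 and 5 left out. The 51.1% belongs to the main fit, and no such share is given for these alternatives. On the fission side the median was 0.026, and under the same alternatives it was 0.042 and 0.051, each with 11 higher and 5 lower. On the fusion side the median was -0.013. Under these alternatives it was -0.056 (5 higher and 6 lower) and -0.053 (2 higher and 9 lower). The fusion side also lists genes of OPA1 processing such as YME1L1, so its split is not one of fusion-promoting genes alone. The 3 prohibitin partners were all higher and the 5 transport genes split as 2 higher and 3 lower, and under both alternatives the prohibitin partners split as 2 and 1, and the transport genes as 4 and 1 and then 3 and 2. No group of genes was tested as a whole.

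Among those higher in VENins lines, CHCHD10, ATP5ME and ATP5MG had the smallest p in edgeR's test. The prohibitin partner DNAJC19 was the other one under an unadjusted p of 0.05 in that test. CHCHD10, a small protein of the intermembrane space related to CHCHD3, had 38, 29.1, 37.1, 33.8 and 31.7 CPM in the VENsens lines and 40.3, 45, 38.8, 37.7 and 47.7 CPM in the VENins lines. It was higher in 5 of 5 pairs, with overlap through VENins line 4, and its log2 fold change was 0.3 (SE 0.087, adjusted p = 0.125, edgeR's quasi-likelihood test with Benjamini-Hochberg adjustment). ATP5ME and ATP5MG, subunits e and g of the ATP synthase that join its dimers along crista edges, had log2 fold changes of 0.31 (SE 0.09, adjusted p = 0.125, 4 of 5 pairs higher) and 0.18 (SE 0.058, adjusted p = 0.16, 5 of 5 pairs higher) in the same edgeR quasi-likelihood test with Benjamini-Hochberg adjustment. All 3 have short transcripts, and with the length and GC trend taken out their log2 fold changes were 0.23, 0.26 and 0.13. With line pairs 2 and 5 left out, they were 0.105, 0.308 and 0.129, so that CHCHD10 moved most and ATP5ME little.

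Among those lower in VENins lines, MIGA1, YME1L1 and PLD6 had the smallest p, and none of the 3 passed the adjusted threshold in edgeR's test (unadjusted p of 0.0215, 0.0375 and 0.0391) or was called by DESeq2. MIGA1, an outer membrane protein that promotes fusion, had a log2 fold change of -0.26 (SE 0.1, lower in 4 of 5 pairs), and PLD6, which makes phosphatidic acid on the outer membrane, had -0.13 (SE 0.059, lower in 4 of 5 pairs). YME1L1, an inner membrane protease that cleaves OPA1, had 215, 236, 220, 218 and 226 CPM in the VENsens lines and 214, 212, 213, 202 and 181 CPM in the VENins lines. These YME1L1 values did not overlap, by a margin of 214 against 215 CPM, which makes YME1L1 the 1 gene of the 48 without overlap, against 2.3% of all genes with VENins lines lower, and the log2 fold change was -0.13 (SE 0.056, 5 of 5 pairs lower). The adjusted p of MIGA1, YME1L1 and PLD6 was 0.224, 0.277 and 0.28 in edgeR's quasi-likelihood test with Benjamini-Hochberg adjustment. Their log2 fold changes were -0.205, -0.106 and -0.127 with the length and GC trend taken out, and -0.09, -0.05 and -0.09 with line pairs 2 and 5 left out.

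**Figure D5:**
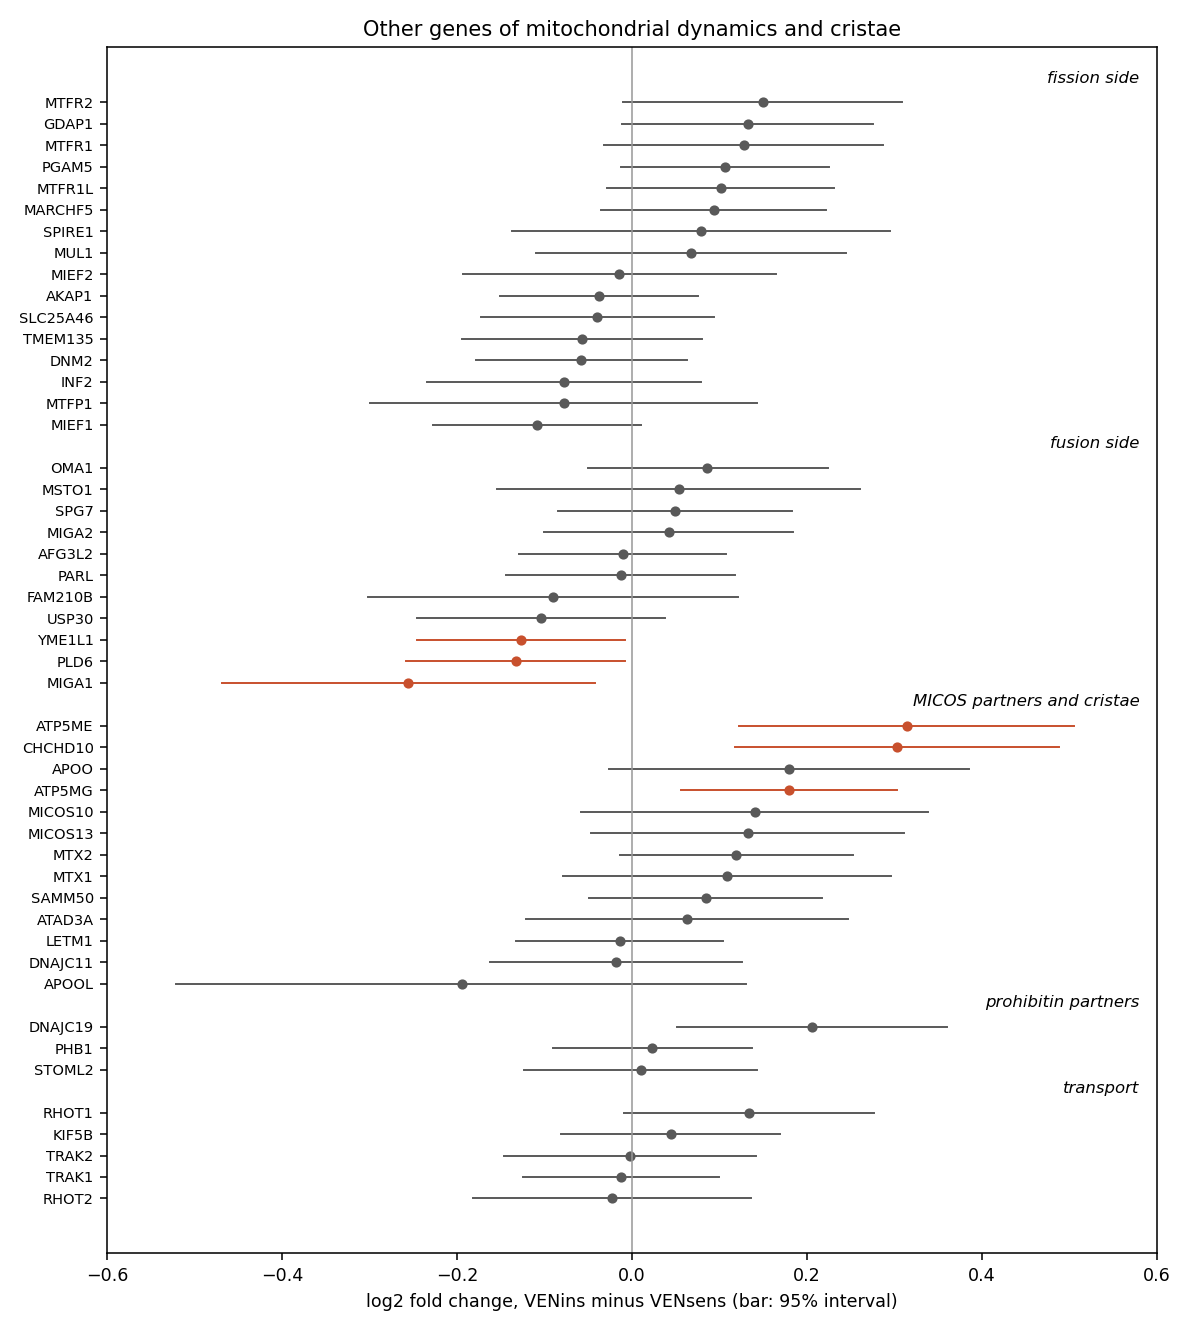
Log2 fold changes, VENins minus VENsens (horizontal axis), with 95% intervals of 48 other genes of mitochondrial dynamics and cristae, grouped by role. Orange marks the 3 genes with the smallest p in each direction, and none of the 48 passed an adjusted p of 0.05 in edgeR's test, with 7 under an unadjusted p of 0.05.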

How the data were processed

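Poly(A) RNA of 10 RS4;11 lines was sequenced with an unstranded kit. The authors deposited raw read counts per Ensembl gene, 1 file per library. The submitters' processing notes name bcl2fastq 2.20.0.422, Bowtie2 2.3.5.1, SAMtools 1.9, HTSeq 0.9.1 and hg19/GRCh37; the strand setting was not given in the sources used here, so antisense overlaps of OPA1, MFF, IMMT and PHB2 cannot be separated. Between 52.71% and 54.16% of reads fell on genes, and between 24.6% and 26.15% were set aside for low alignment quality. Gene names, lengths and coordinates are from GENCODE 29 (GRCh38), matched by identifier.

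The tests ran in edgeR 4.0.16 under R 4.3.3 (filterByExpr with minimum counts of 10 per library and 15 in total, TMM, quasi-likelihood F test, line number and condition in the model) and DESeq2 1.42.0, with Benjamini-Hochberg adjustment and a threshold of 0.05. In the main edgeR fit the adjustment covered 16756 genes. Of the same genes, DESeq2 left 3899 without an adjusted p with the block and 4550 without it. Standard errors were derived from the F statistic, and log2 CPM used a prior count of 2. Length and GC trends were fitted per library with splines of 4 degrees of freedom. Figures used Python 3.11.15 and matplotlib 3.10.9. The fits were tested on simulated data. Libraries of 1 group differed beyond counting error (chi-square per degree of freedom from 1.93 to 14.3).

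The 10 genes and the lists were chosen with earlier results of these data known. Named are all 10 and, of the other genes, those with an adjusted p under 0.05 or otherwise the 3 with the smallest p in each direction. Alternatives were other scalings, filters, thresholds and tests, no block, each line pair left out, a length and GC correction, and added pseudogene counts. Leaving out line pairs 2 and 5 together was added after the data were seen. The counts of genes lowest or highest in VENsens line 2 or VENins line 5 with the trend taken out were also not planned.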

Additional observations from a re-analysis of the deposited data

Results flagged for a closer look

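OPA1 in VENins line 5 had 116 CPM, while the other 4 VENins lines lay between 137 and 145 CPM. It lies far from its group by Dixon's test, with a gap of 0.715 of the group's range against a critical value of 0.71. Chance marks about 1 in 20 groups in this way, and 20 groups were examined (10 genes in 2 conditions), so 1 such value is about what chance gives. The same library had the lowest values of MFN1 and DNM1L, and with each library's length and GC trend taken out OPA1 was 0.09 below its mean there on the log2 scale, in place of 0.25. The cause was not tested.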

How the results depend on the processing

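Of 160 values (10 genes under 16 alternatives), 18 repeat the reported value by construction (another threshold, or pseudogenes added to genes without pseudogene counts). Of the other 142, 131 kept their sign and their side of the threshold, 0 passed it and 11 changed sign, to values between -0.058 and 0.022. These were FIS1 without line pair 1 (0.003), DNM1L and PHB2 without pair 2 (-0.007 and -0.017), MFN1 without pair 3 (-0.01) or 4 (-0.008), PHB2 without pair 4 (-0.001) or 5 (-0.017), MFN2 and PHB2 with the length and GC trend taken out (0.022 and -0.018), and OPA1 and PHB2 without pairs 2 and 5, added after seeing the data (0.02 and -0.058). Leaving out 1 pair at a time, OPA1 ranged from -0.114 to -0.003, MFN1 from -0.01 to 0.063, MFN2 from -0.059 to -0.033, DNM1L from -0.007 to 0.046, MFF from 0.103 to 0.155, FIS1 from -0.066 to 0.003, IMMT from 0.003 to 0.032, CHCHD3 from -0.111 to -0.063, CHCHD6 from 0.132 to 0.231 and PHB2 from -0.017 to 0.055. Among all genes the count of 33 became 149 without the replicate block, 217 and 739 in DESeq2 with and without the block, 664 without a filter, 293 at an adjusted p under 0.1, 152 with the trend taken out (74 higher and 78 lower, against 6 and 27) and 8 without pairs 2 and 5. Leaving out pairs 1 to 5 in turn gave 57, 6, 17, 331 and 9. The block and the other settings moved 0 of the 10 genes across the threshold. Without a filter, edgeR's prior degrees of freedom were infinite, so genes kept no spread of their own. The 0 calls among the other dynamics and cristae genes became 4 in DESeq2 without the block (8.33%, against 4.41% of all tested genes) and 2 of 49 without a filter (4.08%, against 2.02% of 32884 genes). The 4.41% counts 4550 of 16756 genes that DESeq2 left without an adjusted p, which could not be called. In the order of levels, 4 genes kept their place under the longest transcript. With the trend taken out, the count of genes highest in VENsens line 2 or VENins line 5 went from 5 to 1. The count of genes lowest in these lines went from 7 to 5. Lines with the same number did not deviate together (correlations between -0.151 and 0.053 over 14616 genes), and 0 of 5 VENsens lines correlated best with the VENins line of their own number, so the pairing is one of numbers. Each gene but CHCHD6 had at least 708 counts in every library, so depth limits mainly CHCHD6.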
